A study of Mus musculus with 6 samples.

Results

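YAP and TAZ pathway genes were followed through liver RNA of mice carrying tumours of Hepa 1-6 cells, a mouse hepatoma line. They are 10 genes chosen by name: the coactivators *Yap1* and *Wwtr1*, the DNA-binding factors *Tead1* and *Tead4*, the inhibitors *Lats2* and *Amotl2*, the LATS-binding adaptor *Ajuba*, and the targets *Ctgf*, *Cyr61* and *Axl*. Of the 10, 9 have 1 row each among the 12792 rows of the deposited gene table, and *Tead4* is not analysed here. All 9 had a value above 0 in every library, so all 9 passed the filter on low values. The tested libraries are 3 labelled Akr1d1 knockout (KO), set against 3 labelled wild type (WT). All 6 come from liver of animals with established Hepa 1-6 tumours, so no library is from a tumour-free liver. The labels give no age, sex or strain, do not say how the knockout allele was made, and give neither the number of animals behind each group nor the share of tumour in the tissue. Where libraries share an animal, p-values measure only the spread between these samples, which may be technical.

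Hippo signalling is a kinase cascade in which the MST kinases activate LATS1 and LATS2, and these phosphorylate YAP and its paralogue TAZ (encoded by *Wwtr1*), which keeps both out of the nucleus. YAP and TAZ have no DNA-binding domain, and when unphosphorylated they act through TEAD factors on genes of growth, matrix and cytoskeleton. In mouse liver the pathway is known for its control of organ size and of biliary fate, and YAP activation leads to liver overgrowth and tumours. The main control is on the phosphorylation and location of the proteins, so mRNA levels show the expression of the components and targets and not the activity of the kinases.

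TEAD factors bind the sequence GGAATG, or CATTCC when read on the other strand, and the annotated starts of the members were searched for it. Start-site windows of 300 bases, 250 before the start and 50 after, came from RefSeq (GRCm38.p6, the mm10 assembly) and matched 7 of the 9 genes, with none for *Tead1* and *Ctgf*. All 7 held the motif on 1 strand or the other, in 8 of their 9 windows, against 16.6% of the 27025 genes with such a window and 14.8% of the 9939 of them that are in the deposited table. Most of the members are known targets, *Lats2*, *Amotl2* and *Ajuba* included, so this share describes them and is no test. The 30 bases around each match are shown on the strand of the gene with the motif in capitals, to show the letters on which that count rests. They are matches of 6 letters, and binding of a TEAD factor was not measured at any of them.
Yap1: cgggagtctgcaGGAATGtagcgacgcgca
Wwtr1: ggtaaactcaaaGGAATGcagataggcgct
Axl: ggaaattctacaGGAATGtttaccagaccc
Lats2: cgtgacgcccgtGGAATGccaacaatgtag
Amotl2: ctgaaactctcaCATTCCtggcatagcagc
Ajuba, outer site: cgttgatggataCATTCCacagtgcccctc
Ajuba, inner site: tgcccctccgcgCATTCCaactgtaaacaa
Cyr61: cgcgccaaccaaCATTCCtgagatgtttga

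The match in *Yap1* (chr9:8004720-8004749, minus strand) begins 141 bases before the start, and that in *Wwtr1* (chr3:57576029-57576058, minus strand) 136 and 170 bases before its 2 annotated starts. The match lies 233 bases before the start in *Axl* (chr7:25788949-25788978, minus strand), 65 bases in *Amotl2* (chr9:102717727-102717756, plus strand) and 103 bases in *Cyr61* (chr3:145650071-145650100, minus strand). *Ajuba* has a pair of matches, 186 and 164 bases before its start (chr14:54577830-54577859 and chr14:54577808-54577837, minus strand). In *Lats2* (chr14:57746102-57746131, minus strand) the match lies 4 bases after 1 start and the window of the other start has none. The AP-1 motif TGANTCA, searched as the binding sequence of a factor known to work beside TEAD, was in 0 of the 7 genes, against 8.97% of all genes with a window.

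The 250 bases before the *Cyr61* start (chr3:145649986-145650235, minus strand) are shown whole, since *Cyr61* varied most among the members across the libraries, with the TEAD motif in capitals.
Cyr61 upstream: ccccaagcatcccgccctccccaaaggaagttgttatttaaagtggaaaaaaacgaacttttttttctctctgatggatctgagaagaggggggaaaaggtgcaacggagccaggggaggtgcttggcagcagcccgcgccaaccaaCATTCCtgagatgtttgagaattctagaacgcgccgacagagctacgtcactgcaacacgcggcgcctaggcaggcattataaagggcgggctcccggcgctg

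Each value printed here is a ratio in which 1 reads as the gene's own mean over 7 libraries, the 6 described here and 1 not analysed here, so values compare libraries for 1 gene and not 1 gene with another. Total reads per library are unknown, and the read counts behind a value cannot be given. The targeted gene *Akr1d1* went against the labels: it stood at 1.21, 1.21 and 1.35 in the libraries labelled KO, against 0.826, 0.697 and 0.881 in the libraries labelled WT. All directions are therefore between libraries as labelled, and a gene-level value cannot show an allele whose transcript persists without a working protein. The limma adjusted p of *Akr1d1* was 0.170, and 8.86% of all genes had all KO values above all WT values as it did. Why *Akr1d1* was higher in the libraries labelled KO, and whether the labels hold, was not tested. Of 12578 genes tested with limma, 2 passed an adjusted p under 0.05, both with values of 0 in all WT libraries, and 1514 had an unadjusted p under 0.05. The 11 hepatocyte markers with a value, out of 12 listed, were above 0 in every library. Simulated libraries of the same spread, with 200 genes changed, recovered 22.4% of genes changed 1.5-fold, 61.2% changed 2-fold and 77.3% changed 4-fold. The simulation gave 118 calls, against 2 here, and more calls make the adjusted threshold easier to pass. Its shares therefore do not measure the power of the test in the real libraries.

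None of the 9 members passed the test, where 0.0159% of all genes did. *Wwtr1* alone had all 3 KO values above all 3 WT values, an arrangement that 8.86% of all genes showed, and it alone had an unadjusted p under 0.05, as 12% of all genes did. No member had all 3 KO values below all 3 WT values, against 10.1% of all genes. The log2 change was above 0 for 5 members and below 0 for 4, with a median of 0.05, beside a median of -0.004 and 49% above 0 over all genes. The median size of change, disregarding sign, was 0.13 (log2) for the members and 0.13 for all genes.

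**Figure D1:**
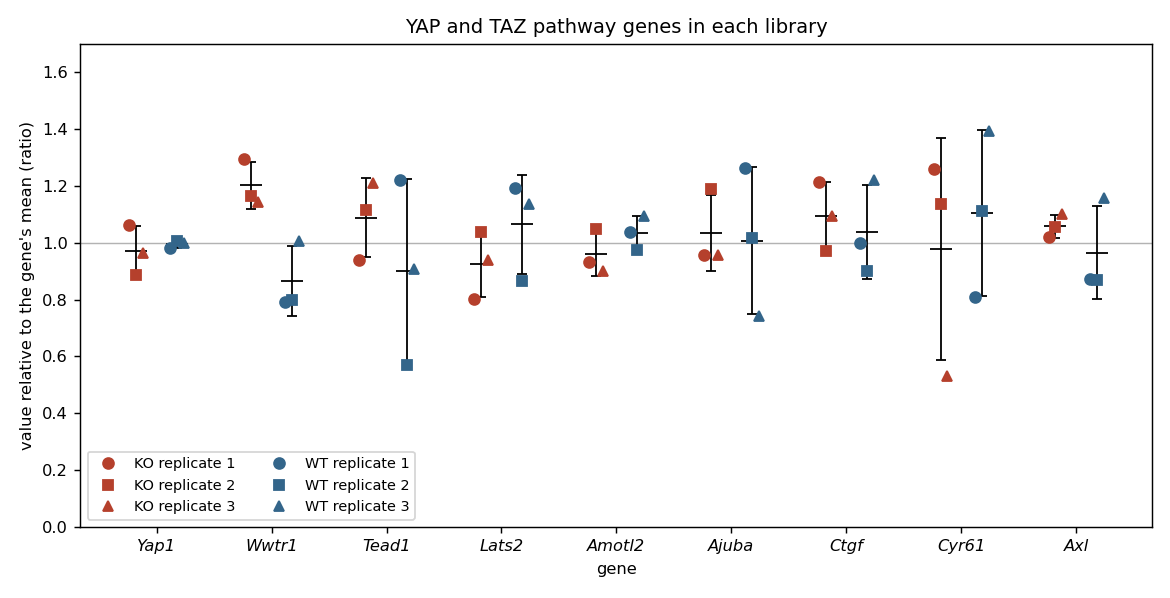
Value of each of the 9 genes in each library (vertical axis, ratio to the gene's mean), with KO libraries in red on the left and WT libraries in blue on the right of each gene; the horizontal mark is the group mean and the bar 1 SD (n = 3). *Wwtr1* is the gene whose groups do not overlap, *Cyr61* and *Tead1* have the widest spread, and *Yap1* and *Amotl2* the narrowest.

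Neither coactivator passed the test, and the groups did not overlap for *Wwtr1* and overlapped for *Yap1*. *Wwtr1*, which encodes TAZ (chr3:57455649-57575910, minus strand), had values of 1.30, 1.16 and 1.15 in the KO libraries, against 0.790, 0.798 and 1.01 in the WT libraries. The lowest KO library thus lay above the highest WT library, and WT replicate 3 was closest to the KO group. The means were 1.20 ± 0.0819 in KO and 0.865 ± 0.123 in WT (SD, n = 3 each), a ratio of 1.39. The log2 change was 0.44 (SE 0.12, 95% interval 0.15 to 0.72) with a limma adjusted p of 0.263, and its p ranked 466 among the 12578 genes. By an exact permutation test (two-sided) p was 0.1, which is the lower limit with 3 libraries a group. Leaving out each library in turn gave log2 changes of 0.38 to 0.54, none of which passed.

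*Yap1*, the paralogue (chr9:7931999-8004596, minus strand), stood at 1.06, 0.885 and 0.964 in the KO libraries and at 0.980, 1.01 and 0.998 in the WT libraries. The WT libraries lay inside the range of the KO libraries, and the highest value was only 1.20 times the lowest, a span below that of most genes (percentile 14.9 of all genes tested). The log2 change was -0.036 (95% interval -0.25 to 0.18), which corresponds to ratios of 0.839 to 1.13, and it was 0.022 without KO replicate 2. The *Wwtr1* value divided by the *Yap1* value was 1.22, 1.32 and 1.19 in the KO libraries, against 0.806, 0.792 and 1.01 in the WT libraries. Since *Yap1* varied little, this quotient follows the *Wwtr1* values and is no second separation of the groups. It is a quotient of relative values and does not say which paralogue was more abundant.

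*Tead1*, the member among the TEAD factors with a value (chr7:112679318-112906807, plus strand), stood at 0.940, 1.11 and 1.21 in the KO libraries and at 1.22, 0.568 and 0.907 in the WT libraries. The WT libraries held both the highest and the lowest value. The log2 change of 0.30 (SE 0.26, 95% interval -0.34 to 0.93) was 0.04 without WT replicate 2, the library with 0.568, and 0.53 without WT replicate 1. The related factors are *Tead2* and *Tead3*. *Tead2* had a KO mean 1.46 times the WT mean (log2 change 0.53, SE 0.32, adjusted p = 0.561). Its log2 change was 0.30 without WT replicate 3 and 0.82 without WT replicate 1. *Tead3* was at 0.912 of its WT mean (-0.12, SE 0.09, adjusted p = 0.662), with -0.19 and -0.07 when the same libraries were left out. *Vgll4*, whose product competes with YAP and TAZ for TEAD, was at 0.837 (-0.24, SE 0.17, adjusted p = 0.634), with -0.39 without KO replicate 3 and -0.13 without KO replicate 2. The groups overlapped for all of these factors.

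Neither inhibitor passed the test, and the groups overlapped for both. *Lats2*, the kinase that phosphorylates YAP and TAZ and is itself a target (chr14:57689662-57758388, minus strand), had 0.802, 1.04 and 0.938 in the KO libraries, against 1.19, 0.867 and 1.13 in the WT libraries. WT replicate 2 fell among the KO libraries. The ratio was 0.869 (log2 change -0.18, 95% interval -0.55 to 0.19, adjusted p = 0.682), and the log2 change was -0.31 without WT replicate 2 and -0.09 without KO replicate 1. *Amotl2*, an angiomotin that holds YAP and TAZ at junctions (chr9:102716672-102733418, plus strand), had 0.934, 1.05 and 0.902 in the KO libraries and 1.04, 0.974 and 1.09 in the WT libraries. Its values spanned 1.21-fold, and the ratio was 0.929 (log2 change -0.10, 95% interval -0.32 to 0.12, adjusted p = 0.713), with -0.16 without KO replicate 2 and -0.06 without KO replicate 3. For both genes the log2 change was below 0 whichever library was left out, and the interval included 0.

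*Ajuba*, a LIM protein that restrains LATS kinases (chr14:54567472-54577558, minus strand), stood at 0.956, 1.19 and 0.957 in the KO libraries and at 1.26, 1.02 and 0.744 in the WT libraries. The WT libraries spanned the KO libraries on both sides. The log2 change was 0.05 (SE 0.20, 95% interval -0.43 to 0.53, adjusted p = 0.932), and it was -0.04 without KO replicate 2 and -0.13 without WT replicate 3, so the values give it no direction.

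Neither CCN target passed the test, and the groups overlapped for both. *Ctgf*, a secreted matricellular protein and the most used readout of YAP and TAZ (chr10:24595442-24598683, plus strand), had 1.21, 0.972 and 1.10 in the KO libraries, against 0.998, 0.899 and 1.22 in the WT libraries. The highest and the lowest value both lay in the WT group. The ratio of means was 1.05 (log2 change 0.07, SE 0.14, 95% interval -0.27 to 0.41, adjusted p = 0.869), and the log2 change was -0.018 without WT replicate 2. *Cyr61*, its paralogue (chr3:145646976-145649981, minus strand), had 1.26, 1.14 and 0.531 in the KO libraries and 0.811, 1.11 and 1.39 in the WT libraries. KO replicate 3 had the lowest value of *Cyr61* and WT replicate 3 the highest, 2.62 times apart (percentile 88.3 of all genes tested). The log2 change was -0.21 (SE 0.34, 95% interval -1.05 to 0.63, adjusted p = 0.842), and it turned to 0.14 without KO replicate 3.

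*Cyr61* over *Ctgf* within a library was 1.04, 1.17 and 0.485 in the KO libraries, against 0.812, 1.24 and 1.14 in the WT libraries, so *Cyr61* was low relative to *Ctgf* in KO replicate 3 while the other libraries were within 0.812 to 1.24 (two-sided exact permutation p = 0.6). Among the other CCN genes *Wisp1*, *Wisp2* and *Wisp3* had ratios of 0.906, 0.711 and 0.884, the groups overlapped for all 3, and the smallest adjusted p was 0.771. The log2 change of *Wisp2* was -0.82 without WT replicate 3 and -0.13 without WT replicate 1.

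*Axl*, a receptor tyrosine kinase of the TAM family (chr7:25757273-25788705, minus strand), had 1.02, 1.06 and 1.10 in the KO libraries and 0.873, 0.867 and 1.16 in the WT libraries. WT replicate 3 stood above all 3 KO libraries, and WT replicates 1 and 2 below all of them. The ratio was 1.10 (log2 change 0.13, SE 0.12, 95% interval -0.18 to 0.44, adjusted p = 0.721). The log2 change was 0.26 without WT replicate 3, where it still did not pass (adjusted p = 0.355), and 0.07 without WT replicate 1 or 2. The TAM ligand *Gas6* had a ratio of 1.10, the ligand *Pros1* 1.02 and the receptor *Mertk* 0.933, with overlapping groups for each. The log2 change of *Gas6* was 0.06 without WT replicate 2 and 0.20 without WT replicate 1.

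**Figure D2:**
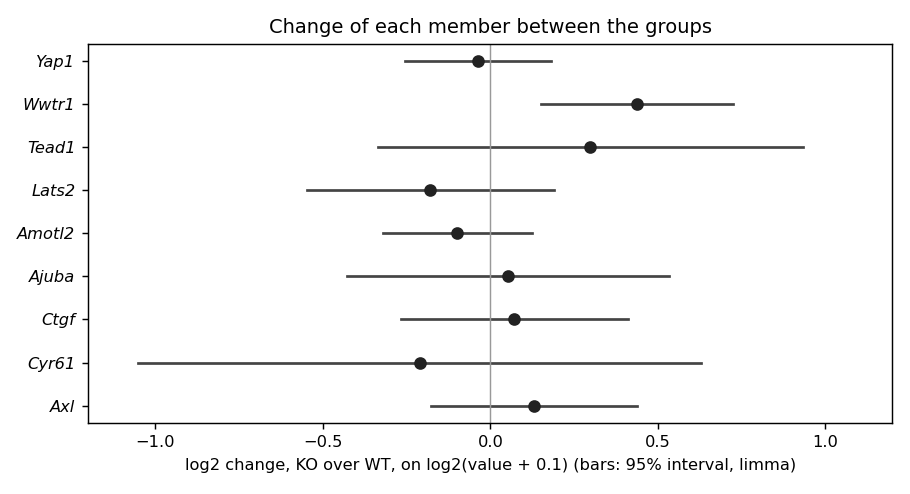
Log2 change of each member, KO over WT, on log2(value + 0.1), with its 95% interval from limma (horizontal axis). The interval of *Wwtr1* (0.15 to 0.72) excludes 0 before adjustment over all genes, and the other 8 include it; the widest is that of *Cyr61*.

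The intervals set how large a change these libraries could have missed. For 6 of the 9 members the 95% interval lay within a 1.5-fold change in either direction, and for 8 within a 2-fold change. *Cyr61* was the exception at 2-fold, and *Wwtr1* and *Tead1* reached beyond 1.5-fold on the higher side. These intervals are on log2(value + 0.1), which understates changes, and they are not adjusted for the number of genes. Close to the limits were *Lats2* (-0.55) and *Ajuba* (0.53) at 1.5-fold and *Tead1* (0.93) at 2-fold. With no pseudocount the log2 change was -0.20 for *Lats2* and 0.34 for *Tead1*. The counts of 6 and 8 thus hold on this scale and may be lower without the added 0.1.

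Patterns across the 6 libraries were compared by the root mean square difference of centred log2 values, where 0 is an identical profile. Of the 36 pairs of members, *Ctgf* and *Axl* were closest (0.111), followed by *Lats2* and *Amotl2* (0.129). *Tead1* and *Cyr61* were farthest apart (0.659), and the paralogues *Ctgf* and *Cyr61* ranked 31 of 36 (0.416), while *Yap1* and *Wwtr1* ranked 14 (0.261). Outside the members, the genes nearest to *Ctgf* were *Rala*, a small GTPase (0.0302), *Mef2c*, a transcription factor (0.0373), and *Pigg* (0.0388), against a median of 0.224 over all genes. Those nearest to *Cyr61* were *Ppp1r3c*, a glycogen-targeting phosphatase subunit (0.0817), *Maff*, a small Maf factor (0.0854), and *Cercam* (0.116), against a median of 0.450. Over 6 libraries and 12578 genes such close neighbours arise readily, and the order is a description.

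Each library had the lowest value of 1 to 3 members, with 3 (*Tead1*, *Ctgf* and *Axl*) in WT replicate 2, which was lowest for 18.3% and highest for 22.3% of all genes. WT replicate 3 had the highest value of 4 members (*Amotl2*, *Ctgf*, *Cyr61* and *Axl*), and it was highest for 15.4% of all genes. With 9 genes these counts are a description. The mean of the members' centred log2 values was 0.05, 0.08 and -0.05 in the KO libraries and 0.005, -0.16 and 0.07 in the WT libraries, with overlapping groups.

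*Cyr61* is also known as an immediate early gene, induced within minutes by serum and stress, and its values were set beside 14 others of that class. KO replicate 3, where *Cyr61* was lowest, also had the lowest value of 8 of these 14 genes, while it was lowest for 19.2% of all genes. The mean centred log2 value of the 14 genes was 0.18, -0.07 and -0.28 in the KO libraries, against 0.07, -0.22 and 0.31 in the WT libraries. KO replicate 3 was thus lowest and WT replicate 3 highest for both *Cyr61* and the class, but WT replicates 1 and 2 were not in the same order. Whether handling of the tissue plays a part in the *Cyr61* values was not tested. Of the 14 genes 7 had positive and 7 negative log2 changes (median -0.01), and 0 passed by limma, with 4 at an unadjusted p under 0.05. *Ier2* stood at 0.652 of its WT mean (log2 change -0.56, SE 0.09, adjusted p = 0.145), *Dusp1* 0.350 (-1.25, SE 0.36, adjusted p = 0.286) and *Egr1* 0.600 (-0.65, SE 0.22, adjusted p = 0.357), and the KO values of all 3 genes lay below their WT values. Over all genes 10.1% showed that arrangement and 12% had an unadjusted p under 0.05. The remaining gene of the 4, *Klf6*, went the other way, and its groups overlapped. It averaged 1.75 times its WT mean (log2 change 0.73, SE 0.26, limma adjusted p = 0.358).

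**Figure D3:**
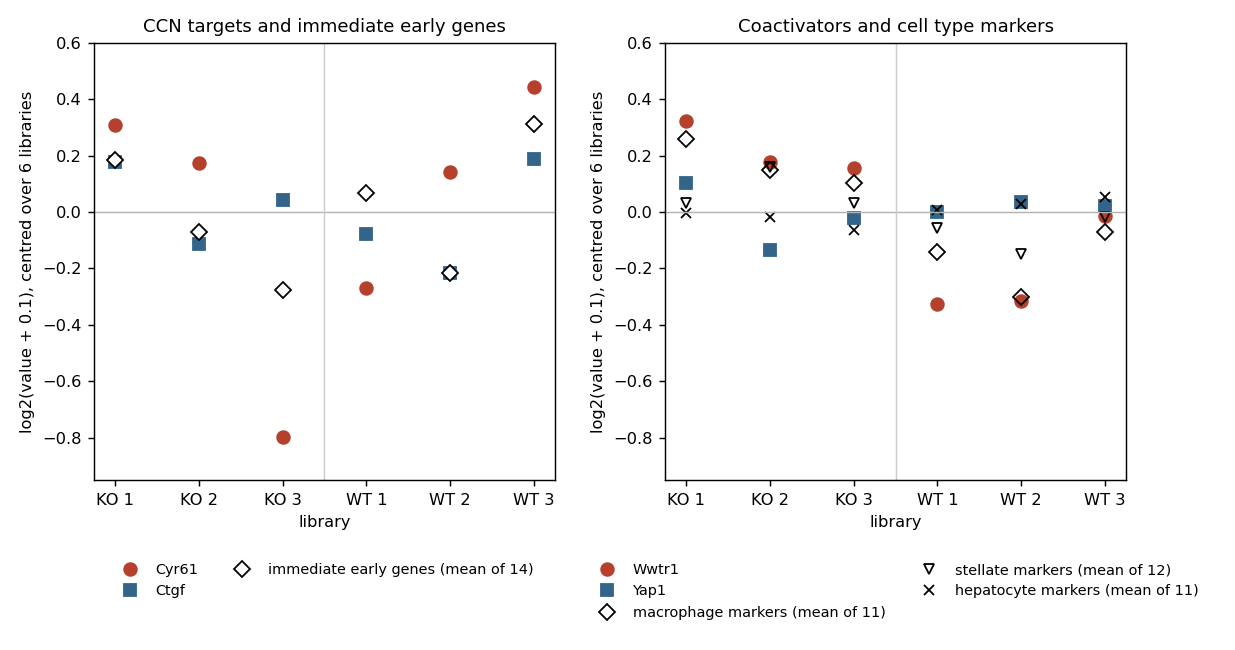
Log2(value + 0.1) centred over the 6 libraries (vertical axis) for each library, KO left of WT. Left, *Cyr61* and *Ctgf* with the mean of 14 immediate early genes: KO replicate 3 is low for *Cyr61* and for that mean, and *Ctgf* is near 0 there. Right, *Wwtr1* and *Yap1* with mean macrophage, stellate and hepatocyte markers: *Wwtr1* and the macrophage mean are above 0 in the KO libraries and below 0 in the WT libraries, and *Yap1* stays close to 0.

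Marker lists of other liver cells were read beside *Wwtr1*, since in bulk tissue fewer cells of a type and less RNA per cell cannot be told apart, and TAZ is also expressed outside hepatocytes. The mean centred log2 value of 11 macrophage markers was 0.10 to 0.26 in the KO libraries and -0.30 to -0.07 in the WT libraries, with 10 of the 11 log2 changes positive. For 12 stellate and fibroblast markers it was 0.03 to 0.16 in KO and -0.15 to -0.02 in WT, with 8 of 12 positive. The largest ratios among the 12 were those of the collagen genes *Col1a1* (1.746, limma adjusted p = 0.0842), *Col3a1* (1.554) and *Col1a2* (1.396). The log2 changes of *Des*, *Lum*, *Reln* and *Colec11* were negative. For 10 T and NK cell markers the mean was 0.04 to 0.47 in KO and -0.31 to -0.002 in WT, with 6 of 10 positive. Hepatocyte markers were at -0.06 to -0.004 in KO and 0.007 to 0.05 in WT, with 9 of 11 negative. None of the genes of these 4 lists was at 0 in any library, and none passed by limma, while 4, 3, 4 and 2 had an unadjusted p under 0.05 in the macrophage, stellate, lymphocyte and hepatocyte lists. Over all genes 12% had an unadjusted p under 0.05. All KO values lay above all WT values for 5 macrophage, 3 stellate and 3 lymphocyte markers, against 8.86% of all genes. For 4 hepatocyte markers all KO values lay below all WT values, against 10.1% of all genes. No gene of the 4 lists had the arrangement opposite to that of its list. The hepatoma list, of which 2 of 10 genes had a value (*Cdkn3* and *Gpc3*), had means of -0.13 to 0.85 in KO and -0.44 to -0.25 in WT. The groups overlapped for each gene: *Cdkn3* averaged 2.35 times its WT mean (log2 change 1.11, SE 0.44, adjusted p = 0.400) and *Gpc3* 1.14 times (0.24, SE 0.38, adjusted p = 0.841, and -0.12 without WT replicate 1). The part of cell composition, tumour share included, in the *Wwtr1* difference was not tested.

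Ductular markers, which in mouse liver include genes that YAP is known to induce, overlapped between the groups: the mean of 10 genes was 0.34, 0.46 and -0.11 in the KO libraries, against -0.06, -0.48 and -0.15 in the WT libraries. KO replicate 3 fell within the WT range. Of the 10 genes, 9 had positive log2 changes (median 0.47), and 0 passed by limma, with 3 at an unadjusted p under 0.05. All KO values lay above all WT values for these 3. Over all genes 8.86% showed that arrangement and 12% had an unadjusted p under 0.05. *Spp1*, which encodes osteopontin, was at 1.60, 1.65 and 0.870 in KO and at 0.826, 0.547 and 0.670 in WT (ratio 2.02, log2 change 0.88, SE 0.27, adjusted p = 0.306). *Bicc1* had a ratio of 1.47 (0.51, SE 0.17, adjusted p = 0.343). The claudin gene *Cldn7* had 1.61 (0.60, SE 0.21, adjusted p = 0.358), with a log2 change of 0.39 without KO replicate 1. Of 12 endothelial markers 10 had negative log2 changes (median -0.09), with overlapping means. The 1 with an unadjusted p under 0.05 went the other way. This was *Lyve1*, with all KO values above all WT values (ratio 1.865, log2 change 0.81, SE 0.12, limma adjusted p = 0.134). In 2 other endothelial markers of the 12 all KO values lay below all WT values, an arrangement that 10.1% of all genes showed.

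The rest of the pathway gave no called gene either. Of 17 further Hippo kinases and activators 16 were tested, 9 with positive and 7 with negative log2 changes (median 0.05), 2 with all KO values above all WT values and 1 with all below. By limma 2 of the 16 had an unadjusted p under 0.05. Over all genes the shares were 8.86% above, 10.1% below and 12% at an unadjusted p under 0.05. *Map4k4*, a kinase that can activate LATS, had KO over WT at 1.17 (log2 change 0.21, SE 0.07, adjusted p = 0.357), and the MST kinase gene *Stk3* had 1.31 (0.35, SE 0.14, adjusted p = 0.417), with a log2 change of 0.23 without KO replicate 3. *Wwc1*, which encodes the LATS activator KIBRA, had 0.756 to 0.920 in the KO libraries against 0.941 to 1.15 in the WT libraries, a ratio of 0.805 (-0.28, SE 0.11, adjusted p = 0.397). Of 20 further junction and LIM adaptors 17 were tested, 4 positive and 13 negative (median -0.02), with 1 at an unadjusted p under 0.05. In 3 of the 17 all KO values were below all WT values, an arrangement that 10.1% of all genes showed: *Scrib*, which encodes a polarity scaffold, at 0.802 of its WT mean (-0.29, SE 0.07, adjusted p = 0.250), *Llgl1* at 0.873 (-0.18, SE 0.07, adjusted p = 0.421) and *Llgl2* at 0.863 (-0.20, SE 0.09, adjusted p = 0.470).

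A signature of YAP and TAZ target genes beyond the members had 14 of 17 genes tested. Of these 10 had positive and 4 negative log2 changes (median 0.07, against -0.004 over all genes), 2 had KO values that were all above the WT values, and 0 passed by limma, with 3 at an unadjusted p under 0.05. Over all genes 8.86% had all KO values above all WT values, and 12% had an unadjusted p under 0.05. *Nt5e*, which encodes the ectonucleotidase CD73, had 1.08, 1.06 and 1.46 in the KO libraries, against 0.650, 0.820 and 0.865 in the WT libraries (ratio 1.54, log2 change 0.56, SE 0.16, adjusted p = 0.290). *Igfbp3*, an IGF-binding protein, had 1.17, 1.20 and 1.04 in the KO libraries and 0.918, 0.942 and 0.844 in the WT libraries (ratio 1.26, log2 change 0.30, SE 0.09, adjusted p = 0.299). The kinase gene *Nuak2* stood at the other end, at 0.709 of its WT mean and overlapping groups (log2 change -0.46, SE 0.19, adjusted p = 0.412, and -0.29 without KO replicate 3). WT replicate 2 had the lowest value of 6 of the 14, as it had for 3 of the 9 members.

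**Figure D4:**
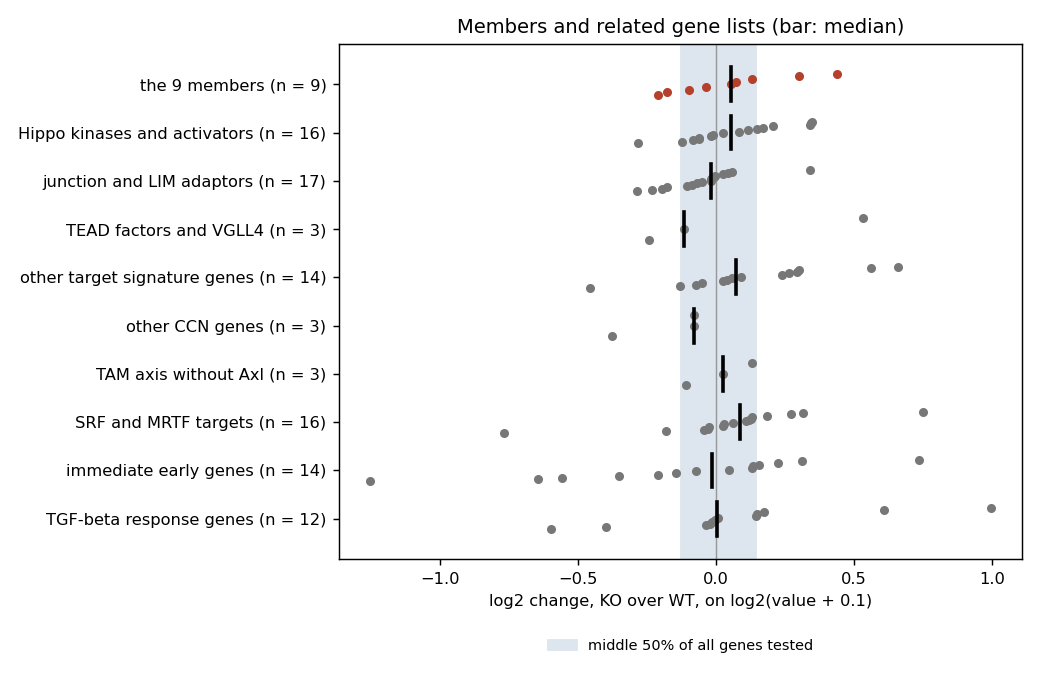
Log2 change, KO over WT, on log2(value + 0.1) (horizontal axis), of the 9 members in red and of related lists in grey, 1 point per gene, with the median as a black bar; the shaded band holds the middle 50% of all genes tested. All medians lie inside the band, with immediate early, TGF-beta and SRF target genes spread the most widely.

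Neighbouring programmes that share targets with YAP and TAZ were also without a call. Of 16 targets of SRF and its MRTF coactivators, which drive actin genes, 11 had positive and 5 negative log2 changes (median 0.09, 1 at an unadjusted p under 0.05, against 12% of all genes). *Acta2*, smooth muscle actin and a marker of activated stellate cells, had 1.40, 1.64 and 1.04 in the KO libraries, against 0.594, 0.796 and 0.910 in the WT libraries (ratio 1.78, log2 change 0.75, SE 0.21, adjusted p = 0.284). *Tagln* had a ratio of 1.23 (log2 change 0.27, and 0.17 without WT replicate 3) and *Tpm4* 1.10 (0.13, and 0.07 without WT replicate 2). Of 12 TGF-beta response genes, to which *Ctgf* also belongs by its known regulation, 6 were positive and 6 negative (median 0.002, 1 at an unadjusted p under 0.05). *Bhlhe40*, a basic helix-loop-helix repressor, stood at 0.634 of its WT mean (-0.60, SE 0.16, adjusted p = 0.262) with all KO values below all WT values. It was the only 1 of the 12 with that arrangement, which 10.1% of all genes showed. *Id1* had a ratio of 1.71 and *Ltbp2* 1.97 with overlapping groups. The log2 change of *Id1*, 0.61, was 0.24 without KO replicate 1. That of *Ltbp2*, 1.00, was 0.48 without WT replicate 1 and 1.46 without WT replicate 3. Cell cycle genes, 12 of 14 tested, had 10 positive log2 changes (median 0.19) and overlapping means, and *Mcm2* stood at 1.46 times its WT mean (0.49, SE 0.09, adjusted p = 0.164). By limma 2 of the 12 had an unadjusted p under 0.05, against 12% of all genes. In 2 of the 12, *Mcm2* included, all KO values lay above all WT values, against 8.86% of all genes.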

How the data were processed

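PolyA RNA of 6 liver libraries was read from 1 deposited table. Its values are linear ratios: no label or header states the step, but no deposited value exceeds 7 and the sum of a gene's 6 values never does (in 99 rows it is 7 within 1e-09), so each reads as expression divided by the mean of 7 libraries. The remaining library is not analysed here. STAR 2.10, R 4.0.5 and mm10 are named, without a role, per the submitters' processing notes; the counter, annotation, strandedness and library scaling: not given in the sources used here. Dividing by the mean removes abundance, so no abundance filter or depth could be used. Genes above 0 in 3 or more libraries (12578 of 12792 rows, of which 189 were empty) were tested on log2(value + 0.1) with limma 3.58.1 under R 4.3.3, its variance prior fitted with no trend, with Benjamini-Hochberg adjustment over all genes and 0.05 as the threshold. The fit was tested on simulated data: 118 of 12578 genes were called, 11 of them falsely. That false share of the calls was above the threshold of 0.05. Members and lists were chosen with earlier results of these data known; genes in 110 names shared by several rows were left out of lists. Named genes are the members, up to 3 genes per list with the smallest p, and the 3 nearest in profile to *Ctgf* and to *Cyr61*. A few more list genes are named where they went the other way. Older symbols were matched through RefSeq synonyms, and gene positions are from GENCODE M21 (GRCm38). Alternatives were other pseudocounts, filters, a mean trend, centred libraries, a replicate block and leaving out each library.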

Additional observations from a re-analysis of the deposited data

How the results depend on the processing

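The count of members that passed was 0 under every alternative run. The count over all genes, 2 as reported, was 1 with a pseudocount of 0.5 or 1, and 0 with a mean trend (1573 at an unadjusted p under 0.05) or with genes above 0 in all libraries and no pseudocount (1495). With the replicate block it was 1, and the median log2 change of the members stayed at 0.05. Same-numbered libraries deviated together little (r = -0.02, -0.002 and 0.09 for replicates 1 to 3 over 12578 genes). Only replicate 3 of KO correlated best with its own number in WT. The labels do not state a pairing, and these correlations cannot exclude one. Leaving out each library in turn gave 1 to 4 calls over all genes, 0 to 0 among the members, and a median of the members from -0.03 to 0.10. The sign turned with a library left out for *Yap1* (-0.097 to 0.022), *Ajuba* (-0.13 to 0.22), *Ctgf* (-0.018 to 0.18) and *Cyr61* (-0.42 to 0.14), and it was kept under every alternative run for *Wwtr1*, *Tead1*, *Lats2*, *Amotl2* and *Axl*. *Wwtr1* ranged from 0.24 with a pseudocount of 1 to 0.54, with a smallest adjusted p of 0.220, under the mean trend. Among other named genes the sign turned for *Wisp1* (-0.37 to 0.077), *Wisp3* (-0.43 to 0.38), *Mertk* (-0.28 to 0.025), *Pros1* (-0.036 to 0.091), *Mef2c* (-0.099 to 0.12), *Gpc3* (-0.12 to 0.56), *Ppp1r3c* (-0.30 to 0.29), *Maff* (-0.34 to 0.10) and *Cercam* (-0.32 to 0.14). The causes were not tested. Read depth is unknown, so counting error could not be separated from the spread between libraries.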
